A study of Mus musculus with 6 samples.

Results

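NF-κB is a family of dimeric transcription factors that carries signals from antigen, cytokine and pattern recognition receptors to the nucleus. The genes described here are 4 of its subunit genes (Rela, Rel, Relb and Nfkb2), 3 genes of the IκB inhibitors that hold it in the cytoplasm (Nfkbia, Nfkbib and Nfkbie), its feedback inhibitor Tnfaip3, and Nod1, a cytosolic sensor of bacterial peptidoglycan whose signal ends in NF-κB. Members were chosen by name, with earlier results of these data known, and Nod1 was known to differ between the groups. Of 10 listed genes 9 were measured, among 19938 genes in all, each by 1 probe set, so that no choice by level between probe sets was needed. Nfkb1 was not analysed here.

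The study compared naive CD4 T cells without Ly-6C on 3 arrays with naive CD4 T cells carrying Ly-6C on 3 arrays. Ly-6C is a lipid-anchored surface protein. The donors were C57BL/6 Foxp3-GFP mice, 6 weeks of age, and both populations were sorted from their peripheral lymph nodes as CD4+, CD8-, TCRβ+, CD44lo, CD25- and Foxp3- cells. Both groups carry the Foxp3-GFP reporter, which marks regulatory T cells for exclusion. The arrays are labelled as biological replicates, but the donors behind each array are not named, so a p-value measures the spread between these arrays only. Values are RMA log2 expression, which compares a probe set across arrays but does not rank genes by level, and a positive difference means higher in Ly-6C-negative cells.

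In canonical signalling, a receptor activates the IκB kinase, IκBα is destroyed, and dimers such as RELA or c-Rel with the NFKB1 product enter the nucleus. In the non-canonical branch the NFKB2 precursor is processed and pairs with RELB. NF-κB also drives genes of its own inhibitors, so that Nfkbia and Tnfaip3 are widely used as readouts of its activity. In T cells the antigen receptor also signals to NF-κB, and c-Rel is needed for regulatory T cell development.

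The DNA around the start sites of the members was searched for the sequence that NF-κB is known to bind. RefSeq windows of the GRCm38.p6 build, from 250 bases before to 50 bases after an annotated start, were given for 8 of the 9 measured genes, and both strands were searched for the NF-κB consensus, a motif of 10 letters. A match lay in a window of 5 of these 8 genes: Rel, Nfkb2, Nfkbia, Nfkbie and Tnfaip3. Rela, Nfkbib and Nod1 had none, and neither did another window of Tnfaip3. Over all genes with a window the share with a match was 5.14% (1388 of 27025). Of the members' 12 windows 7 held a match, against 4.51% of all windows. Some of the 7 are windows of Nfkb2 that overlap, so that a match at the same place is counted again. The members' windows had 47% to 75% G and C with a median of 59.5%, against a median of 52.7% over all windows. The motif is itself rich in G and C. The windows below set a gene of each role beside Nod1, and all of them except that of Nod1 are windows with a match. They run 5′ to 3′ on the gene's strand, and capitals mark the stretch that matches on either strand.
Nod1, sensor, chr6:54972563-54972862, minus strand: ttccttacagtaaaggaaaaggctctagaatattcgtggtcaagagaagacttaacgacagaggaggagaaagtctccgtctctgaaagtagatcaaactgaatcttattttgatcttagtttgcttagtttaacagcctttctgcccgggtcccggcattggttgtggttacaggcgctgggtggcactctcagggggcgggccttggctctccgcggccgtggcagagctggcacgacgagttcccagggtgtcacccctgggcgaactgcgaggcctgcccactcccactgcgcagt
Nfkbia, inhibitor, chr12:55492598-55492897, minus strand: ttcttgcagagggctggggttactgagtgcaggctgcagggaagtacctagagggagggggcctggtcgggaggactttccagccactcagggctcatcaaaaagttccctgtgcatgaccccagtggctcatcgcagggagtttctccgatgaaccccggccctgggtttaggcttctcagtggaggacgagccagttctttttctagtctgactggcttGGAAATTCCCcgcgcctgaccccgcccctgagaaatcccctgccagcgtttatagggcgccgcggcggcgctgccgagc
Tnfaip3, feedback inhibitor, chr10:19015361-19015660, minus strand: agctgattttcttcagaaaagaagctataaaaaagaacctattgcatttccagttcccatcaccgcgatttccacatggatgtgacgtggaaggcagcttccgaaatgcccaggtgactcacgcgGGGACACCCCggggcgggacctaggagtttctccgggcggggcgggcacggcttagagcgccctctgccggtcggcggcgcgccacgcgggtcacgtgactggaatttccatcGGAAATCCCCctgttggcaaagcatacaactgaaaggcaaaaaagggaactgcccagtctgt
Rel, canonical subunit, chr11:23770920-23771219, minus strand: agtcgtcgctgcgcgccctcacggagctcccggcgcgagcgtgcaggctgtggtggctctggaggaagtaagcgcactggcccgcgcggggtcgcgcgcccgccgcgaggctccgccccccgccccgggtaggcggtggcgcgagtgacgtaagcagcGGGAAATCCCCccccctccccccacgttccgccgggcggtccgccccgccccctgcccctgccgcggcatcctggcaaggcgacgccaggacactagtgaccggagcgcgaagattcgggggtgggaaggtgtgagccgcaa
Nfkb2, non-canonical subunit, chr19:46304487-46304786, plus strand: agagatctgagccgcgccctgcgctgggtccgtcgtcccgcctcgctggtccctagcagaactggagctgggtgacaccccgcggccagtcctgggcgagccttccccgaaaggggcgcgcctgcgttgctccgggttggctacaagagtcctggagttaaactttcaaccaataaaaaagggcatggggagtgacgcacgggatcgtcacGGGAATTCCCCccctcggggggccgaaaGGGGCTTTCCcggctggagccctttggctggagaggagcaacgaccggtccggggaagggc

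The match in Nfkbia, which encodes IκBα, reads GGGAATTTCC on the strand opposite to the gene and begins 29 bases before the start. In Tnfaip3, which encodes the ubiquitin editor A20, the matches read GGGACACCCC on the gene's strand, beginning 125 bases before the start, and GGGGATTTCC on the opposite strand, beginning 12 bases before it. The capitals in Rel cover 3 overlapping matches and those in Nfkb2 cover 4, some of them overlapping. Of 2 windows of Nod1, neither held a match, and that says no more than that these letters are not there. A match is a description of sequence and not a measured binding site.

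Nod1 was the member that differed. Its probe set 10544891 read 7.52, 7.52 and 7.58 in Ly-6C-negative cells, against 7.06, 7.14 and 7.11 in Ly-6C-positive cells. All Ly-6C-negative arrays lay above all Ly-6C-positive arrays, as in either direction for 12.6% of all genes, with a gap of 0.38 between the groups, while the arrays spanned 0.060 within the Ly-6C-negative group and 0.078 within the Ly-6C-positive group. The means were 7.54 ± 0.034 (SD, n = 3) in Ly-6C-negative cells and 7.11 ± 0.039 (SD, n = 3) in Ly-6C-positive cells. The difference was 0.43 with a standard error of 0.063, or 1.35-fold, with a 95% interval of 1.22 to 1.49-fold. Between arrays with the same replicate number it was 0.46, 0.38 and 0.47. In bulk RNA, more cells of a type and more transcript per cell cannot be told apart.

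The value that had put Nod1 on the list was its limma adjusted p of 0.0398, from the same contrast, so it describes the choice and tests nothing further. By p it stood 28th of the 29 genes past the adjusted p threshold of 0.05, and those 29 were 0.145% of all genes. When replicate number entered the fit as a block, the difference stayed at 0.43 and the call was lost (limma adjusted p = 0.0739), with 0.206% of all genes called. The limma adjusted p was 0.198 without Ly-6C-negative replicate 1, 0.107 without Ly-6C-negative replicate 3, and 0.279, 0.224 and 0.261 without Ly-6C-positive replicates 1, 2 and 3. Of these 6 fits, the call was kept only without Ly-6C-negative replicate 2, at 0.0437. Over those fits the difference ran from 0.41 to 0.45.

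**Figure D1:**
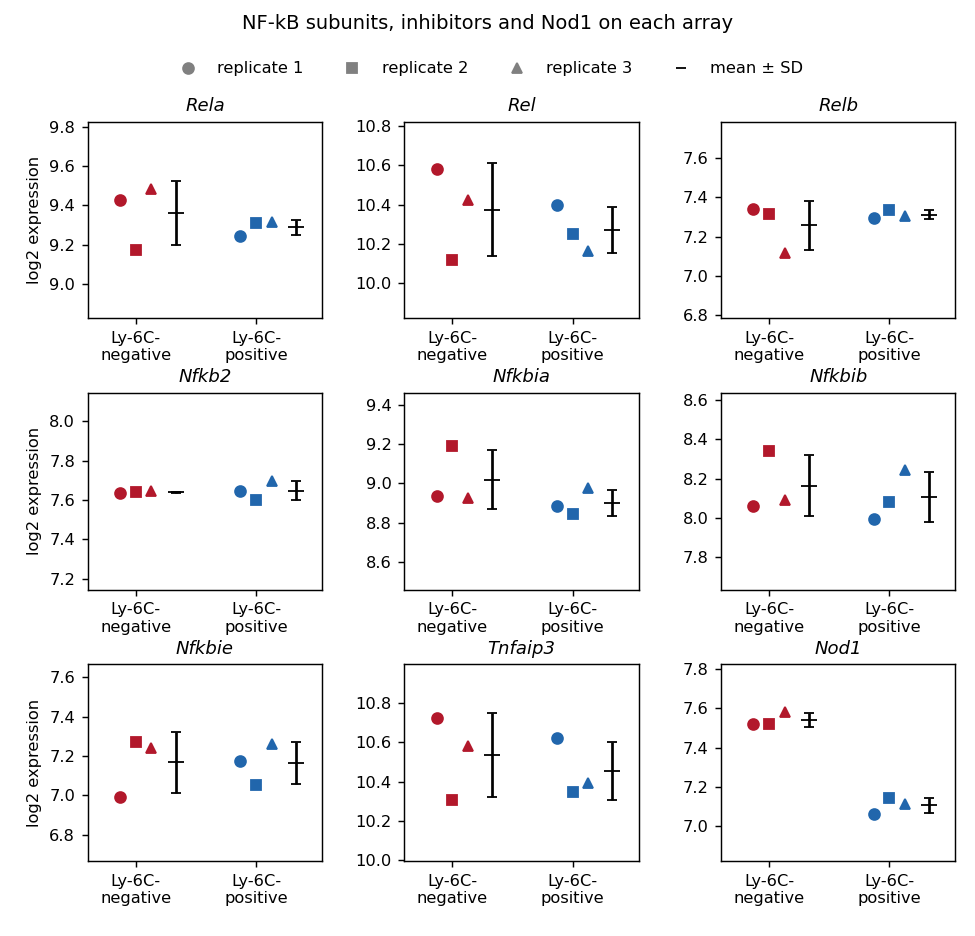
Log2 expression (vertical axes, each spanning 1 log2 unit) of the 9 genes on each array, with Ly-6C-negative cells at left in red and Ly-6C-positive cells at right in blue; black marks give the mean and SD of 3 arrays. The groups are apart for Nod1, at 7.52 to 7.58 against 7.06 to 7.14, and overlap for the other 8 genes.

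**Figure D2:**
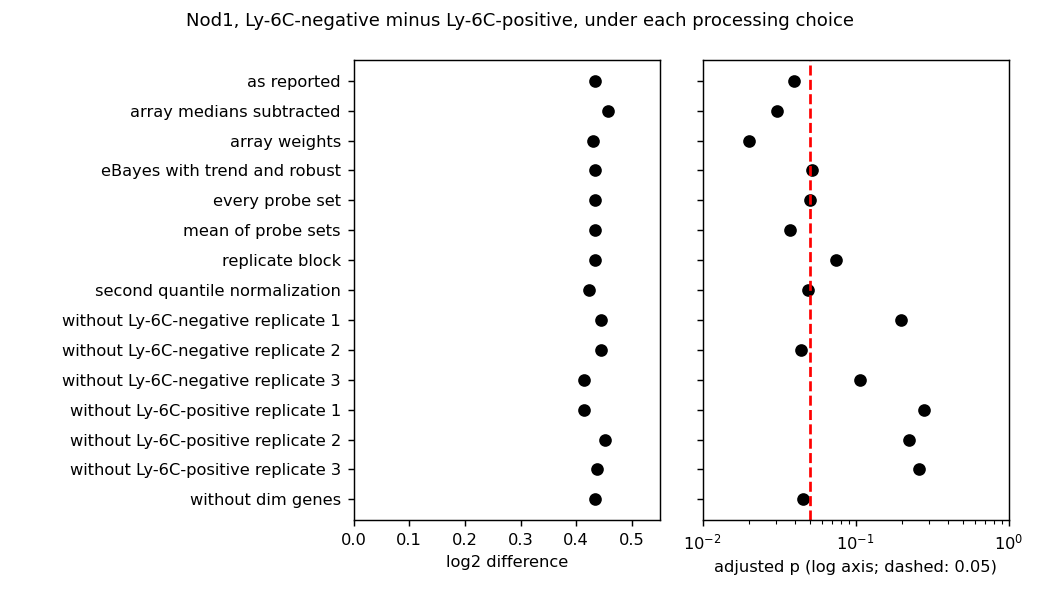
Difference of Nod1 (left, log2 units, Ly-6C-negative minus Ly-6C-positive) and its limma adjusted p (right, log axis, dashed line at 0.05) as reported and under 14 other processing choices. The difference lies between 0.41 and 0.46 in each, and the adjusted p is above 0.05 in 8 of the 14.

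The other 8 members did not pass the test, which does not show that they were unchanged. Their limma adjusted p ran from 0.881 to 0.999, and none had an unadjusted p under 0.05. All of their 95% intervals, which are not adjusted for the number of genes, lay between -0.23 and 0.36 on the log2 scale, that is between 1.17-fold lower and 1.29-fold higher in Ly-6C-negative cells. In 6 of the 8 the difference was above 0, as in 47.8% of all genes, with a median of 0.065 against -0.0048 over all genes. The groups overlapped in each of the 8.

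Among the subunits, Rela, the transactivating partner of the main canonical dimer, read 9.42, 9.17 and 9.48 in Ly-6C-negative cells, against 9.25, 9.31 and 9.31 in Ly-6C-positive cells. The Ly-6C-negative arrays lay on both sides of the Ly-6C-positive ones, and the difference was 0.071 ± 0.087 (SE; limma adjusted p = 0.931). Rel, the gene of c-Rel, read 10.58, 10.12 and 10.42 in Ly-6C-negative cells, against 10.40, 10.25 and 10.16 in Ly-6C-positive cells. Its highest and lowest arrays were both Ly-6C-negative, 0.47 apart, and the difference was 0.10 ± 0.12 (SE; limma adjusted p = 0.921).

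The subunit genes of the non-canonical branch spanned 0.094 (Nfkb2) and 0.22 (Relb) over the 6 arrays, against 0.31 for Rela and 0.47 for Rel. Nfkb2, the gene of the p100 precursor, read 7.64 on each of the 3 Ly-6C-negative arrays, against 7.65, 7.60 and 7.70 in Ly-6C-positive cells. Its difference of -0.0084 had a 95% interval of -0.15 to 0.13. Relb, whose product pairs with the processed p100, read 7.34, 7.31 and 7.11 in Ly-6C-negative cells, against 7.29, 7.34 and 7.31 in Ly-6C-positive cells. Ly-6C-negative replicate 3 alone set its difference of -0.055 (limma adjusted p = 0.942), which was 0.016 without that array.

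The inhibitors gave no passing difference either. Nfkbia read 8.94, 9.19 and 8.93 in Ly-6C-negative cells, against 8.88, 8.84 and 8.97 in Ly-6C-positive cells. Ly-6C-negative replicate 2 was the high array, and the difference of 0.12 (95% interval -0.075 to 0.31) was 0.032 without it. Nfkbib, the gene of IκBβ, averaged 8.16 ± 0.16 (SD, n = 3) in Ly-6C-negative cells and 8.11 ± 0.13 (SD, n = 3) in Ly-6C-positive cells. Nfkbie, the gene of IκBε, averaged 7.17 ± 0.16 (SD, n = 3) in Ly-6C-negative cells and 7.16 ± 0.11 (SD, n = 3) in Ly-6C-positive cells. The limma adjusted p of Nfkbib was 0.95 and that of Nfkbie 0.999.

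Tnfaip3 read 10.73, 10.31 and 10.58 in Ly-6C-negative cells, against 10.62, 10.35 and 10.39 in Ly-6C-positive cells. The groups overlapped, and the difference was 0.083 ± 0.11 (SE; limma adjusted p = 0.942; 95% interval -0.17 to 0.34). The differences with their intervals are drawn in the plot of members.

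**Figure D3:**
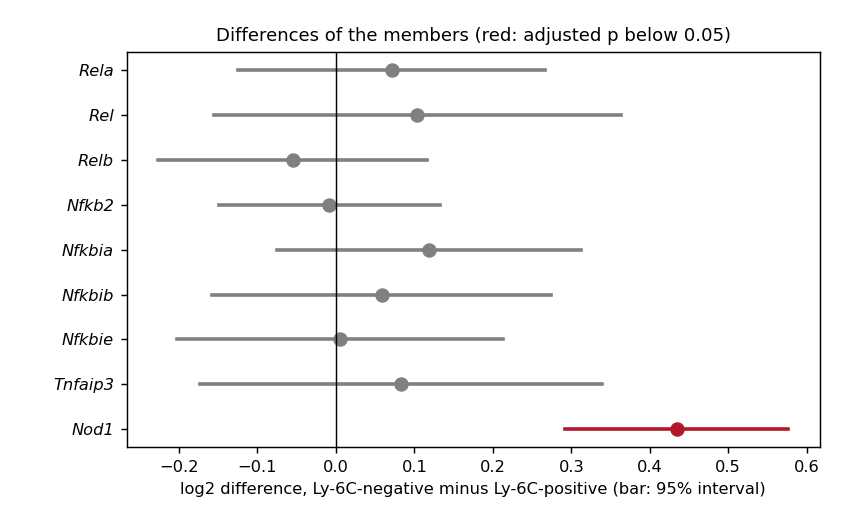
Log2 difference, Ly-6C-negative minus Ly-6C-positive, of each member (point) with its 95% interval from the limma fit (bar). The interval of Nod1, in red, runs from 0.29 to 0.58, and those of the other 8 genes, in grey, include 0.

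Within the Ly-6C-negative group some members were highest or lowest on the same array, a grouping that was not tested. Ly-6C-negative replicate 2 was the lowest of its group for Rel, Rela and Tnfaip3, by 0.39, 0.28 and 0.35 below the mean of the other 2 arrays. It was the highest of its group for Nfkbia, Nfkbib and Nfkbie, by 0.26, 0.27 and 0.16 above that mean. For Nod1 it differed from that mean by -0.030. For Relb and Nfkb2 it was neither highest nor lowest, and differed from that mean by 0.088 and -0.0020. For Nfkbie, Ly-6C-negative replicates 2 and 3 read close together, at 7.27 and 7.24, while Ly-6C-negative replicate 1 read 6.99. How often Ly-6C-negative replicate 2 was the highest or lowest of its group over all genes was not counted. This array also stood apart over all genes, with a score of 19.9 on a first principal component that held 34.6% of the variance, while the other 5 arrays scored between -10.0 and -0.26. Without it the differences were 0.23 for Rel, 0.16 for Rela and 0.20 for Tnfaip3, with limma adjusted p of 0.478, 0.514 and 0.554, and -0.031 for Nfkbib and -0.047 for Nfkbie.

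**Figure D4:**
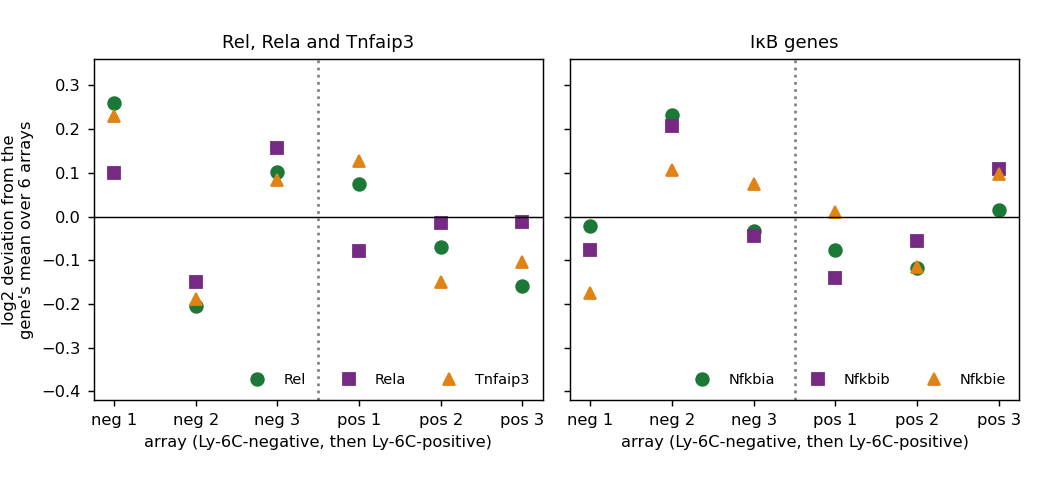
Deviation of each array (horizontal axis: Ly-6C-negative replicates, then Ly-6C-positive replicates) from the gene's mean over 6 arrays, in log2 units, for Rel, Rela and Tnfaip3 (left) and the IκB genes Nfkbia, Nfkbib and Nfkbie (right). Ly-6C-negative replicate 2 is below 0 for all 3 genes at left and above 0 for all 3 at right. Relb, Nfkb2 and Nod1 are not drawn.

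The genes around the members were read from 8 lists that hold 97 distinct genes, of which 90 were measured. Among the 90, 1 passed and was higher in Ly-6C-negative cells, Tnfrsf9, and none was lower, against 0.145% called over all genes. With an unadjusted p under 0.05 there were 10 of 90, against 6.71% of all genes. The median difference of the 90 was 0.027, with 53 above 0. The remaining 7 were not analysed here.

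The gene that passed was on the list of TNF receptors, where 1 of 8 passed, against 0.145% called over all genes. The lists were chosen with earlier results of these data known, so this count is a description and not an independent test. Tnfrsf9, which encodes the costimulatory receptor 4-1BB, read 7.27, 7.38 and 7.24 in Ly-6C-negative cells, against 6.74, 6.83 and 6.84 in Ly-6C-positive cells. All Ly-6C-negative arrays were above all Ly-6C-positive ones (difference 0.50, standard error 0.070, limma adjusted p = 0.0325), and leaving out an array in turn gave limma adjusted p of 0.0437 to 0.239. Tnfrsf4, the gene of OX40, differed by 0.39 and did not pass (limma adjusted p = 0.139). Tnfrsf1b, the gene of TNF receptor 2, averaged 7.82 ± 0.25 (SD, n = 3) in Ly-6C-negative cells and 7.30 ± 0.19 (SD, n = 3) in Ly-6C-positive cells. Its limma adjusted p was 0.426, and 0.0295 when the fit held replicate number as a block. The other 5 of 8 receptor genes differed by -0.034 to 0.041, Tnfrsf18, the gene of GITR, by -0.012.

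Genes that carry the signal from the receptors to IκB did not pass. Of 10 genes of the IκB kinase and TAK1 group, kinases and their partner proteins, 0 passed by limma, with a median difference of 0.046. Of the 10, 2 had an unadjusted p under 0.05, against 6.71% of all genes. Map3k8, the gene of the kinase TPL2, which is held by the NFKB1 precursor, read 7.24, 7.14 and 7.29 in Ly-6C-negative cells, against 6.89, 6.999 and 6.91 in Ly-6C-positive cells. Its groups did not overlap and its difference was 0.29 ± 0.070 (SE; limma adjusted p = 0.357). Tab3, an adaptor of TAK1, differed by 0.18, Map3k7, the gene of TAK1 itself, by 0.11, and Ikbkb, the gene of the catalytic subunit IKKβ, by 0.00086.

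In the antigen receptor branch 0 of 7 genes passed by limma and 1 had an unadjusted p under 0.05. Cd28, the costimulatory receptor, differed by 0.16, Malt1, the paracaspase, by 0.16 and Vav1, a guanine nucleotide exchange factor, by 0.093. The non-canonical list had 0 of 7 genes past the limma threshold and 0 with an unadjusted p under 0.05. Its differences ran from -0.056 for Map3k14, the gene of the kinase NIK, to 0.042 for Traf2.

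No gene of Nod1's own branch passed the test. Of 12 measured genes of the NOD1 and NOD2 branch, 0 passed by limma and 0 had an unadjusted p under 0.05, with 6 above 0 and a median of -0.027. Nod2, the sensor of muramyl dipeptide, read 6.05, 6.16 and 6.18 in Ly-6C-negative cells, against 6.18, 6.16 and 6.26 in Ly-6C-positive cells, a difference of -0.068 (95% interval -0.22 to 0.087). Xiap, a ubiquitin ligase of this branch, differed by 0.11, Nlrx1, a mitochondrial member of the same receptor family, by -0.099, and Slc15a3, a transporter of peptides out of endosomes, by -0.16.

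The brakes beside Tnfaip3 were likewise below the threshold. Of 17 measured ubiquitin editors and brakes, 0 passed by limma and 0 had an unadjusted p under 0.05, with a median of 0.0076. Tnip2, which binds A20, differed by 0.11, Otud7b, a deubiquitinase, by 0.091, Pdlim2, which promotes the breakdown of RELA, by -0.13, and Cyld, a deubiquitinase, by 0.0076. The atypical IκB genes Nfkbid, Bcl3 and Nfkbiz and the gene Nfkbil1 differed by 0.081, 0.054, -0.044 and 0.11, with 0 of 4 past the limma threshold and 0 with an unadjusted p under 0.05.

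Target genes of NF-κB known from many cell types gave no passing gene. Of 31 measured, 0 passed by limma and 4 had an unadjusted p under 0.05, against 6.71% of all genes. Of the 31, 18 were above 0, with a median of 0.040. Irf4, a transcription factor gene of activated lymphocytes, read 8.02, 7.88 and 7.94 in Ly-6C-negative cells, against 7.60, 7.75 and 7.61 in Ly-6C-positive cells, with no overlap and a difference of 0.30 (limma adjusted p = 0.364). Il2 differed by 0.21, and the chemokine gene Ccl5 by 0.59 with overlapping groups. Ccl5 read 7.53, 8.25 and 7.33 in Ly-6C-negative cells, against 7.33, 6.93 and 7.09 in Ly-6C-positive cells, and its difference was 0.31 without Ly-6C-negative replicate 2. Birc3, the gene of cIAP2 and a widely used target, differed by -0.0040.

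**Figure D5:**
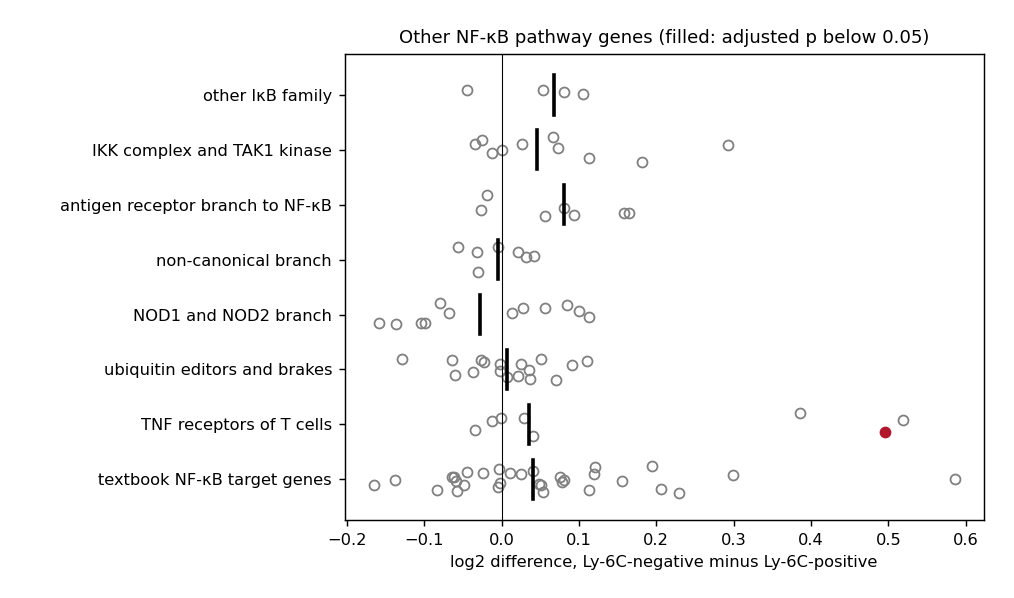
Log2 difference, Ly-6C-negative minus Ly-6C-positive (horizontal axis), of each measured gene in 8 lists of NF-κB pathway genes; vertical bars give the median of a list and the vertical scatter within a list has no meaning. The filled point is Tnfrsf9 at 0.50, and the list medians lie between -0.027 and 0.081.

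The genes whose pattern over the 6 arrays was most like that of Nod1 were Ewsr1, an RNA-binding protein gene, Izumo1r, the gene of folate receptor 4, and Znrf1, a ubiquitin ligase gene. Their Pearson correlations with Nod1 were 0.992, 0.992 and 0.990, across 6 arrays that share the group difference, and 75 genes had a correlation above 0.95. Izumo1r differed by 1.03 (limma adjusted p = 0.00200), Znrf1 by 0.24 and Ewsr1 by 0.13, and Znrf1 and Ewsr1 were not past the threshold.

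Markers of other cells were set beside these values. The marker lists were chosen with earlier results of these data known, so a count of passing markers is a description and not an independent test. The gate's own genes were present, with Cd4 at 10.30 to 10.72 in Ly-6C-negative cells and 10.55 to 10.63 in Ly-6C-positive cells, and 0 of 9 measured CD4 T cell genes passed by limma, with 1, Cd28, at an unadjusted p under 0.05. Of 14 regulatory T cell markers 6 passed and were higher, the direction of Nod1, against 0.145% called over all genes. These were Ctla4, Ikzf2, Gpr83, Il2rb, and Izumo1r and Tnfrsf9, which are the same values as given above. Of the 14, 12 were above 0 and 2 below, Itgae at -0.088 and Tnfrsf18 at -0.012. The regulatory T cell markers had a mean log2 level of 7.23 to 7.32 on Ly-6C-negative arrays and 6.79 to 6.85 on Ly-6C-positive arrays. Foxp3, which defines these cells, averaged 6.67 ± 0.19 (SD, n = 3) in Ly-6C-negative cells and 6.66 ± 0.076 (SD, n = 3) in Ly-6C-positive cells, a difference of 0.013. No marker can read 0 on this scale. The part of these markers in the difference of Nod1 was not tested.

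Of 9 NK cell markers 2, Klrd1 and Gzma, passed and were lower, opposite to Nod1, against 0.145% called over all genes. Of the 9, 4 were above 0 and 5 below, with a median of -0.012. The mean log2 level of the 9 was 5.10 to 5.26 on Ly-6C-negative arrays and 5.45 to 5.49 on Ly-6C-positive arrays. Prf1, the perforin gene, differed by -0.70, with a limma adjusted p of 0.145 and, with a replicate block, of 0.00848. Of 9 B cell markers, 11 monocyte, macrophage and neutrophil markers, 9 dendritic cell markers, 9 stromal and endothelial markers and 6 CD8 T cell markers, none passed by limma, and 1, 2, 0, 0 and 3 had an unadjusted p under 0.05. Over all genes 6.71% had an unadjusted p under 0.05. The 3 CD8 T cell markers were Crtam at -0.29, Eomes at 0.27 and Ccl5 at 0.59. The mean log2 level of the B cell markers was 5.20 to 5.21 on Ly-6C-negative arrays and 5.20 to 5.22 on Ly-6C-positive arrays. Among 12 genes that respond to tissue handling, 0 passed by limma and 1 had an unadjusted p under 0.05, with Jun at -0.30 and Egr1 at 0.11.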

How the data were processed

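The values used are log2 expression as deposited, for 28853 probe sets on each of 6 Affymetrix arrays, from 2.47 to 13.6, with array medians between 6.25 and 6.29. Tools named in the submitters' processing notes are RMA and Partek, without version or role; RMA makes the distributions of the arrays alike, which hides a change shared by all genes. The genome build was not given in the sources used here. The number of arrays limits the precision.

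The platform annotation gave 1 symbol to 21789 probe sets and several to 1621, and did not list 5443. Per gene the probe set with the highest mean was kept, which left 19938 genes. Differences were tested in limma 3.58.1 (R 4.3.3; lmFit and eBayes, 2-sided), without a filter on dim genes or a covariate, and p-values were adjusted by Benjamini-Hochberg over all genes, with a threshold of 0.05. The fit was tested on simulated data. Members, lists and tests were chosen with earlier results of these data known. Genes named are the members, up to 3 genes per list with the smallest p or those past the threshold, the 3 genes most like Nod1 and markers; Nfkbiz, Ikbkb, Cyld, Birc3, Nod2, Tnfrsf4, Tnfrsf1b, Tnfrsf18, Prf1, Jun and Egr1 were added after their values were seen.

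Same-numbered arrays deviated together, with correlations across genes of 0.129, 0.128 and 0.107 for replicates 1, 2 and 3. Between different numbers the highest was -0.011. Deviations were taken from the mean of each group of 3 arrays, so the correlations of an array with the other group cannot all be positive. The numbers were therefore read as possible pairs, from these small correlations and not from the labels. The reported p-values, standard errors and intervals are from the fit without pairs. The fit with a replicate block is given where it changes a call. Alternatives also covered a repeated quantile normalization, centring on array medians, dropping dim genes, every probe set as a feature, the mean of probe sets, trend and robust variance settings, array weights, leaving out each array and a threshold of 0.1. Promoter windows are RefSeq's, of build GRCm38.p6. Figures were drawn with matplotlib 3.10.9.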

Additional observations from a re-analysis of the deposited data

How the results depend on the processing

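All alternatives here were planned. None of the 8 other members passed in any of the 14 alternatives, and their lowest limma adjusted p was 0.478, for Rel without Ly-6C-negative replicate 2. Of their 112 differences under the alternatives 101 kept their sign. Those that turned were Nfkb2 at 0.015 with array medians subtracted, Nfkbie at -0.044 with array weights and -0.0057 after a second quantile normalization, and 8 with an array left out, where the ranges were -0.031 to 0.016 for Nfkb2, -0.0003 to 0.23 for Rel, -0.097 to 0.016 for Relb, -0.031 to 0.13 for Nfkbib, -0.051 to 0.094 for Nfkbie and -0.012 to 0.20 for Tnfaip3. The difference of Nod1 stayed at 0.43 but lost its call with the replicate block (limma adjusted p = 0.0739), with trend and robust settings (0.0517) and with every probe set as a feature (0.0503), and with 5 of 6 arrays left out in turn, where it ran from 0.41 to 0.45. The count of members past the threshold was therefore 0 in these 3 settings, and 0 to 1 with an array left out. The count among the 90 pathway genes was 2 with the replicate block, which added Tnfrsf1b, and 0 to 1 with an array left out. The block changed no other call among the members and pathway genes. Over all genes the count called was 29, against 41 with the block, 54 with array weights and 5 to 47 with an array left out. The cause of these changes was not tested. Leaving out an array also leaves fewer arrays in the fit, and the part of that was not tested either. Signal over background was not analysed here, and RMA compresses differences of dim genes.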
